A study of Mus musculus with 19 samples.

Results

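Genes of Polycomb repressive complex 2 (PRC2) and of the demethylases that remove its mark were followed through myogenic differentiation of cultured mouse cells. The set held 9 genes, taken by name from the 35598 genes that the deposited transcript values could be summed to: Ezh2, Ezh1, Eed, Suz12, Jarid2, Rbbp4, Rbbp7, Kdm6a and Kdm6b. All 9 passed the filter on low counts, which kept 15123 genes. The cells were primary myoblasts from mouse hind-limb muscle, with strain, age and sex not given in the sources used here. There were 6 groups: wild-type (WT) cells as proliferating myoblasts at 24 h in growth medium (n = 3), as differentiated myotubes at 48 h (n = 3) and as fused myotubes at 72 h (n = 4), and Glud1KO cells at the same stages (n = 3, 2 and 4). Glud1 encodes glutamate dehydrogenase, the mitochondrial enzyme that converts glutamate to alpha-ketoglutarate. The labels describe the mutant cells as Glud1 deficient and do not say how or in which cells the gene was inactivated. Libraries of 1 group are called biological replicates, with no statement that they came from separate animals, so the p-values measure the spread between these libraries.

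PRC2 is the enzyme complex that methylates lysine 27 of histone H3 (H3K27), a mark of silenced genes. EZH2 or its paralog EZH1 is the catalytic subunit, EED reads the mark and stimulates the enzyme, SUZ12 is the scaffold, and JARID2 is a substoichiometric subunit that helps to recruit the complex. RBBP4 and RBBP7 are histone-binding subunits shared with other chromatin complexes, while KDM6A (UTX) and KDM6B (JMJD3) remove H3K27 methylation with alpha-ketoglutarate as cosubstrate. In muscle, EZH2 is known as the PRC2 enzyme of dividing progenitors and EZH1 as that of postmitotic fibres, and the demethylases are known to act at muscle genes. Only RNA was measured here, not the mark or the proteins.

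The libraries held 16168131 to 30742634 estimated counts, and values are given as CPM (counts per library total, scaled by edgeR's trimmed mean of M-values). The count of the whole Glud1 gene did not separate the labels. It was 189 ± 4.16 CPM (SD, n = 3) in WT and 187 ± 2.69 (n = 3) in KO myoblasts, 106 ± 5.23 (n = 3) and 99.8 ± 4.48 (n = 2) in differentiated myotubes, and 135 ± 4.49 and 133 ± 3.82 (n = 4 each) in fused myotubes. File names carry the letters KO for WT-labelled libraries as well, while those for Glud1KO-labelled libraries read KOT. Groups follow the sample labels, the mutant libraries are called KO-labelled, and which genotype each group had could not be checked from these counts. The 7 skeletal muscle markers were all present, with a summed level of 1610 to 2040 CPM per library in myoblasts and 19200 to 24800 CPM later. Summed levels in any library reached 9.04 CPM for 5 fibroblast markers, 0.13 for 3 adipocyte and 2.74 for 3 Schwann cell markers, and none of 4 endothelial markers had a group mean of 1 CPM. The 5 macrophage and blood markers reached 28.0 CPM. Nearly all of that was Itgam, at 15.8 ± 1.35 CPM (n = 3) in WT and 25.4 ± 2.57 CPM (n = 2) in KO-labelled differentiated myotubes, while the leukocyte gene Ptprc was at most 0.305 CPM in any library. In bulk RNA, fewer cells of a type and less RNA per cell cannot be told apart.

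Between WT myoblasts and differentiated myotubes, 6 of the 9 genes passed the test (adjusted p under 0.05 in edgeR's quasi-likelihood test), 3 higher (Ezh1, Kdm6a and Kdm6b) and 3 lower (Ezh2, Suz12 and Rbbp7). That comparison called 85.0% of all genes tested, 42.4% higher and 42.6% lower, so a call there sets no gene apart and the sizes carry the description. From differentiated to fused WT myotubes all 9 genes passed, 5 higher and 4 lower, against 75.1% of all genes (37.4% higher and 37.7% lower). From myoblasts to fused WT myotubes all 9 passed, 4 higher and 5 lower, against 85.5% (42.2% and 43.4%). In KO-labelled cells 3 genes were higher and 4 lower at the first step, against 83.7% of all genes (41.3% and 42.5%). At the second step 5 were higher and 1 lower, against 70.2% (35.8% and 34.4%), and from myoblasts to fused myotubes 4 were higher and 4 lower, against 87.2% (42.7% and 44.5%). Scaling by library size alone moved the median log2 fold change of all genes by more than 0.1, to -0.23 and -0.33 for the steps from WT myoblasts to differentiated and to fused myotubes, and to -0.31 and -0.35 in KO-labelled cells. Changes are therefore given relative to the trimmed-mean scaling, whose medians lay between -0.035 and 0.019 in the stage comparisons.

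Ezh2, at chr6:47530139-47595341 on the minus strand (GRCm38), fell furthest. The 3 WT myoblast libraries held 111, 111 and 102 CPM, the 3 WT differentiated libraries 10.6, 10.9 and 9.96 CPM, and the 4 WT fused libraries 9.09, 9.01, 8.88 and 8.90 CPM. KO-labelled libraries held 128, 123 and 125 CPM as myoblasts, 7.65 and 7.39 as differentiated myotubes, and 7.03, 7.45, 6.94 and 6.86 as fused myotubes. Nearly the whole loss lay between 24 h and 48 h, and no myoblast library overlapped a later one. In WT cells the log2 fold change was -3.36 ± 0.05 (SE), a 10.3-fold decrease, in differentiated myotubes against myoblasts (adjusted p = 1.59e-28). It was a further -0.22 ± 0.066 on fusion (adjusted p = 0.00517). KO-labelled cells showed -4.06 ± 0.064, a 16.6-fold decrease, over the first step (adjusted p = 7.76e-28) and -0.09 ± 0.089 over the second (adjusted p = 0.462), where the call was not reached.

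Ezh1, at chr11:101191115-101226463 on the minus strand, moved the other way and at both steps. WT libraries held 13.2, 13.4 and 13.9 CPM as myoblasts, 26.99, 25.7 and 28.6 as differentiated myotubes, and 43.8, 40.1, 41.4 and 43.2 as fused myotubes. In KO-labelled libraries the values were 13.2, 12.2 and 13.8, then 28.6 and 26.5, then 38.9, 35.2, 39.5 and 41.8 CPM. The 3 stages did not overlap in either genotype label. Log2 fold changes in WT cells were 1.00 ± 0.066 to the differentiated stage (adjusted p = 7.76e-14) and 0.64 ± 0.056 from there to fusion (adjusted p = 7.02e-11), a 3.12-fold increase in all. In KO-labelled cells they were 1.08 ± 0.074 (adjusted p = 2.2e-13) and 0.49 ± 0.067 (adjusted p = 2.77e-07).

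**Figure D1:**
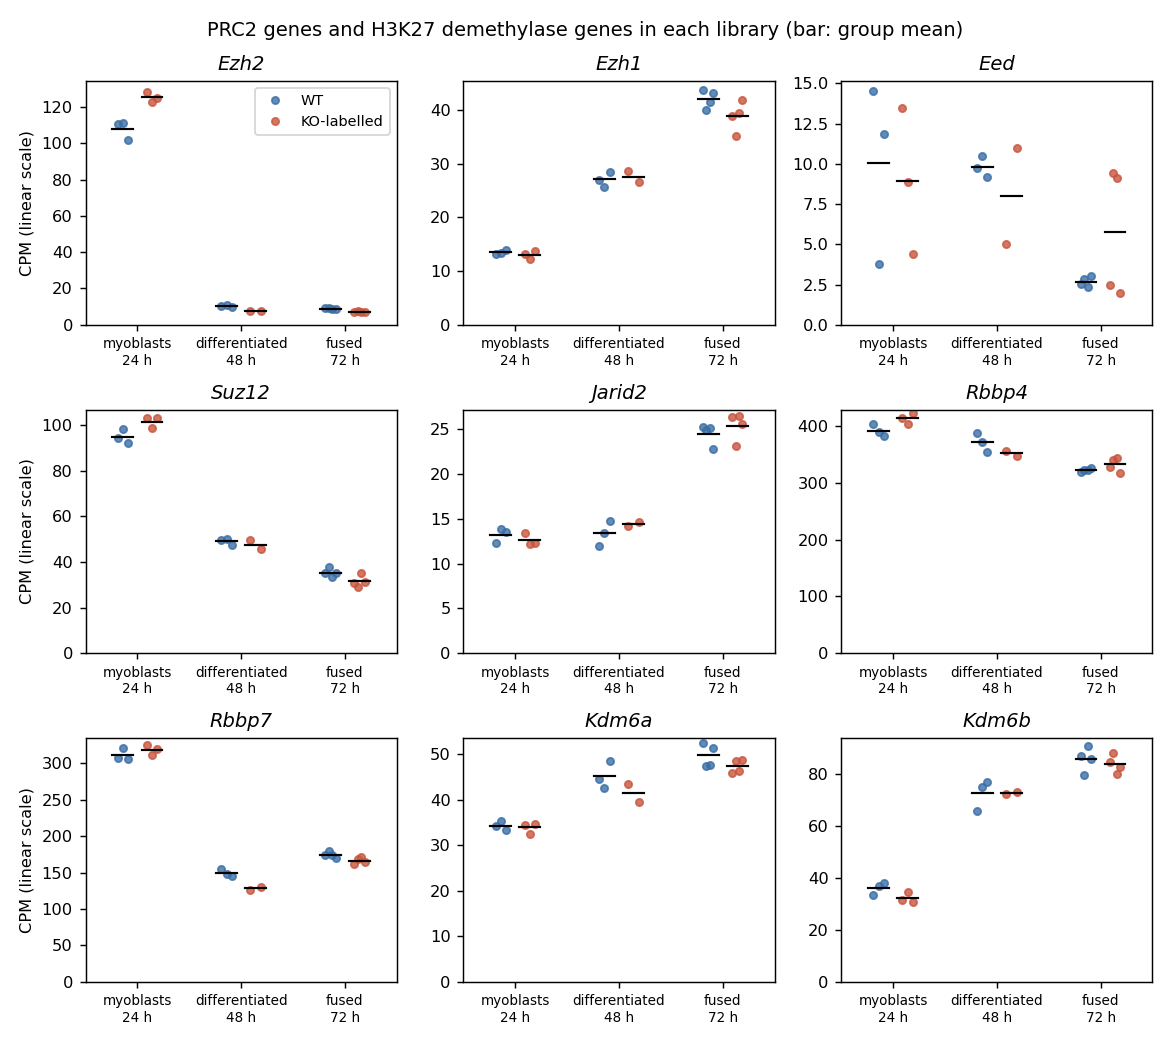
Normalised CPM (linear axes from 0) of the 9 genes in each library, by stage, with WT libraries in blue, KO-labelled libraries in red and group means as black bars. Ezh2 drops from 102 to 128 CPM in myoblasts to at most 10.9 CPM later, Ezh1 rises at each stage, and Eed libraries lie far apart within some groups.

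Promoter windows are shown for Ezh2, for Suz12 and Rbbp7, which fell with it at the first WT step, and for Ezh1, which rose. Each runs from 250 bases before to 50 bases after the annotated start, 5′ to 3′ on the gene's strand, from RefSeq on GRCm38.p6. Windows were found for 8 of the 9 genes. The Ezh2 window lay wholly inside the gene span given above, so the place of words in it depends on the start used. Capitals mark words searched on both strands: the E2F words TTTCCCGC, TTTCGCGC, TTTGCCGC and TTTGGCGC, and the E-box word CANNTG. E2F factors are known to drive genes of the cell cycle, and E-boxes are bound by MYOD and related factors.
Ezh2 (chr6:47594981-47595280, minus strand): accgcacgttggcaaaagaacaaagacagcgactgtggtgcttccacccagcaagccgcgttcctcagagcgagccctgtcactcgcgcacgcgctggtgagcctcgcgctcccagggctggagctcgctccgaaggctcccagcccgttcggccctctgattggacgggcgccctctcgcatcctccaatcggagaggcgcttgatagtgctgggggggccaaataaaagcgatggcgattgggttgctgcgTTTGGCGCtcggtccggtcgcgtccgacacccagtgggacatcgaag
Suz12 (chr11:79992856-79993155, plus strand): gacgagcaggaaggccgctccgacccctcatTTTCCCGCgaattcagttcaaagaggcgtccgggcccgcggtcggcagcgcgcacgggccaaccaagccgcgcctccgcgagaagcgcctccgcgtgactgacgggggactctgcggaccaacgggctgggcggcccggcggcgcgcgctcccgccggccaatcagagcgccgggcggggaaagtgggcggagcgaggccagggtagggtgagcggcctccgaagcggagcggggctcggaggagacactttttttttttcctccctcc
Rbbp7 (chrX:162760122-162760421, plus strand): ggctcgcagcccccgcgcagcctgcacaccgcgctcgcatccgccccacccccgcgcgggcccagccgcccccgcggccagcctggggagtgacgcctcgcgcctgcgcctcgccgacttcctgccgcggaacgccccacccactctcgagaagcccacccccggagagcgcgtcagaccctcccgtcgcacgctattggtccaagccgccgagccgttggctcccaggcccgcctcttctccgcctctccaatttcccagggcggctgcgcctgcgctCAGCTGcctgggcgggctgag
Ezh1 (chr11:101226414-101226713, minus strand): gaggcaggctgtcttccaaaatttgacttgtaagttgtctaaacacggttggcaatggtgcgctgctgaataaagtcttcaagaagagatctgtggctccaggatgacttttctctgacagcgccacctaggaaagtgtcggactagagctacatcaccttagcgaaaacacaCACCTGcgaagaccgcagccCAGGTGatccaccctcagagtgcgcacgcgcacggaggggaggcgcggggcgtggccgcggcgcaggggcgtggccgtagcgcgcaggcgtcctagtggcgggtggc
The Ezh2 window held the E2F word TTTGGCGC at base 254 of 300, and the Suz12 window held TTTCCCGC at base 32. No other window of the set held an E2F word, and 2.26% of the 32851 RefSeq windows of this length did. Ezh1 had the E-box words CACCTG at base 174 and CAGGTG at base 194, and Rbbp7 had CAGCTG at base 280. E-box words were in 72.3% of all windows. The matches describe letters in these windows and no binding was measured.

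The balance of the 2 catalytic genes was taken per transcript length, as the ratio of their TPM, the transcript abundance per length that the files give. In WT myoblasts it was 23.9, 23.4 and 21.6 Ezh2 to 1 Ezh1, in differentiated myotubes 1.39, 1.33 and 0.909, and in fused myotubes 0.531, 0.714, 0.758 and 0.539. In KO-labelled cells it was 27.1, 30.1 and 25.4, then 0.892 and 1.05, then 0.350, 0.898, 0.620 and 0.603. By TPM, Ezh2 thus led in every myoblast library and Ezh1 in each of the 8 fused libraries. The genes were near parity at 48 h on this scale only. Estimated counts, which carry no length correction, gave a mean 48 h ratio of 0.389 for WT libraries and 0.273 for KO-labelled ones. The Ezh1 share of the summed TPM was 4.19 ± 0.219% (n = 3), 45.7 ± 5.81% (n = 3) and 61.4 ± 4.40% (n = 4) in WT cells. KO-labelled cells gave 3.52 ± 0.293% (n = 3), 50.8 ± 2.95% (n = 2) and 62.7 ± 8.78% (n = 4).

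The sum of both genes was lower at the later stages. It went from 129.7 ± 3.02 TPM (n = 3) in WT myoblasts to 24.5 ± 3.10 (n = 3) and 22.0 ± 1.27 TPM (n = 4). In KO-labelled cells it went from 155 ± 1.76 (n = 3) to 20.7 ± 1.99 (n = 2) and 19.5 ± 2.07 TPM (n = 4). Exact two-sided permutation tests of the log2 TPM ratio, 9 in all, could not reach 0.05 in most comparisons of groups this small. Fused WT myotubes against WT myoblasts differed by -5.19 on the log2 scale, with an exact p = 0.0571, the smallest the design allows, and a Benjamini-Hochberg value of 0.171 over the 9 tests. Genotype labels differed by 0.26 in myoblasts (exact p = 0.1, the smallest possible), -0.29 in differentiated myotubes (exact p = 0.4) and -0.10 in fused myotubes (exact p = 0.771). The differentiated value ran from -0.49, without WT library 3, to -0.17, without KO-labelled library 1, and was -0.18 without WT library 1. The fused value turned to 0.15 without KO-labelled library 1, and the myoblast value to -0.18 when only the transcript with the highest mean TPM of each gene was used.

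The TPM ratio carried more spread than the ratio of estimated counts. Within fused KO-labelled libraries the TPM ratio ran from 0.350 to 0.898 and the count ratio from 0.164 to 0.212. A 500-base retained-intron transcript of Ezh2 (ENSMUST00000203857) held 0 to 44.3% of the gene's TPM in those libraries and 0 to 11.3% of its counts. It was at 0 in the first of them, which had the lowest TPM ratio. Without length correction the ratio was 7.99 ± 0.586, 0.389 ± 0.038 and 0.213 ± 0.0085 in the WT stages, and 9.62 ± 0.528, 0.273 ± 0.0079 and 0.183 ± 0.020 in the KO-labelled stages. On this scale the 48 h libraries did not overlap, as WT ran from 0.349 to 0.426 and KO-labelled cells from 0.268 to 0.279 (log2 difference -0.51, exact p = 0.2, the smallest possible). The log2 difference of labels was 0.27 in myoblasts (exact p = 0.1, the smallest possible) and -0.22 in fused myotubes (exact p = 0.0857).

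**Figure D2:**
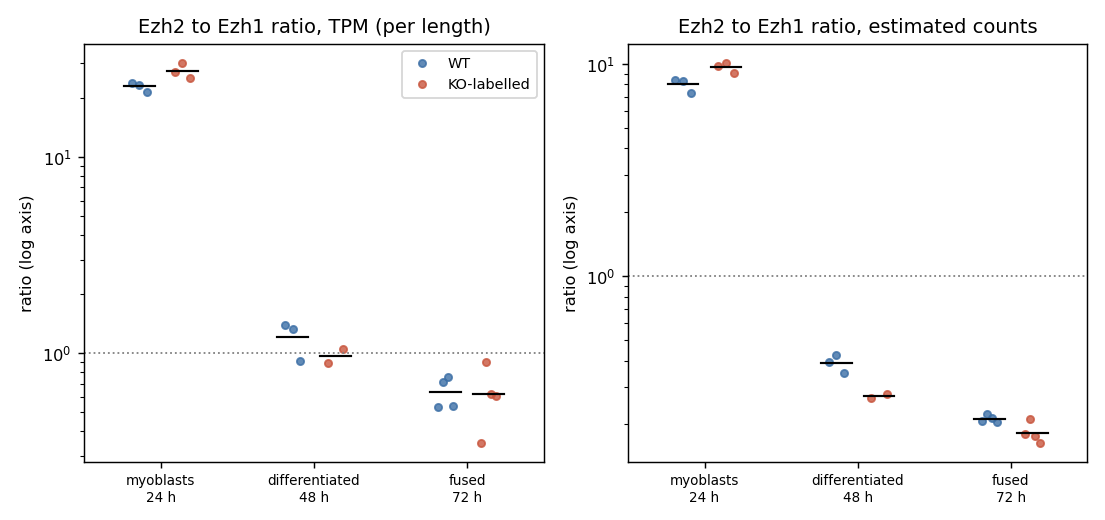
Ratio of Ezh2 to Ezh1 in each library on log axes, by stage, from TPM (left) and from estimated counts without length correction (right), with WT in blue, KO-labelled in red, group means as black bars and a dotted line at a ratio of 1. The TPM ratio passes from 21.6 or more in myoblasts to 0.898 or less in fused myotubes.

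Suz12 at chr11:79993106-80034123, the scaffold gene, fell at each step. WT libraries held 94.5, 98.2 and 92.4 CPM, then 49.5, 50.1 and 47.7, then 35.3, 37.6, 33.4 and 35.1. KO-labelled libraries held 103.0, 98.7 and 103.2 CPM, then 49.6 and 45.6, then 30.6, 29.1, 35.1 and 31.2. The stages did not overlap. In WT cells the log2 fold changes were -0.95 ± 0.049 (adjusted p = 4.13e-16) and -0.47 ± 0.052 (adjusted p = 5.2e-09). The KO-labelled changes were -1.10 ± 0.058 (adjusted p = 6.37e-16) and -0.59 ± 0.061 (adjusted p = 2.74e-09).

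Eed at chr7:89954654-89980983, which encodes the reader subunit, gave values that split within some groups. WT myoblasts held 14.5, 3.80 and 11.9 CPM, KO-labelled myoblasts 13.5, 8.90 and 4.39, and KO-labelled fused myotubes 2.45, 9.45, 9.11 and 2.00. The full-length coding transcript ENSMUST00000107234 (2067 bases) was at 0 estimated counts after rounding in 9 libraries and at 109 to 326 in the other 10. Those 9 were WT myoblast library 2, all 4 WT fused libraries, KO-labelled myoblast library 3, KO-labelled differentiated library 1, and KO-labelled fused libraries 1 and 4. A transcript of nearly the same length in the deposited files, ENSMUST00000238981 (2060 bases), held 79 to 300 counts in these 9 libraries and 0 to 176 in the others. It had no match in GENCODE M21, so its counts entered no gene here, and its gene is not given by the annotation used.

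With its counts added to Eed, an alternative chosen after the values were seen, the groups drew together. Means were 12.8 ± 1.92, 11.4 ± 1.24 and 9.80 ± 0.920 CPM in the WT stages (n = 3, 3 and 4) and 14.3 ± 0.315, 12.6 ± 1.26 and 9.05 ± 1.298 CPM in the KO-labelled stages (n = 3, 2 and 4). The WT step from differentiated to fused myotubes was -1.85 ± 0.451 (adjusted p = 0.000651) as summed by GENCODE and -0.22 (adjusted p = 0.0678) with the transcript added, where the call was lost. From myoblasts to fused myotubes the added values fell by 0.38 (adjusted p = 0.00127) in WT and 0.64 (adjusted p = 1.85e-06) in KO-labelled cells on the log2 scale. The count of genes called in the WT step to fusion was then 8 in place of 9.

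**Figure D3:**
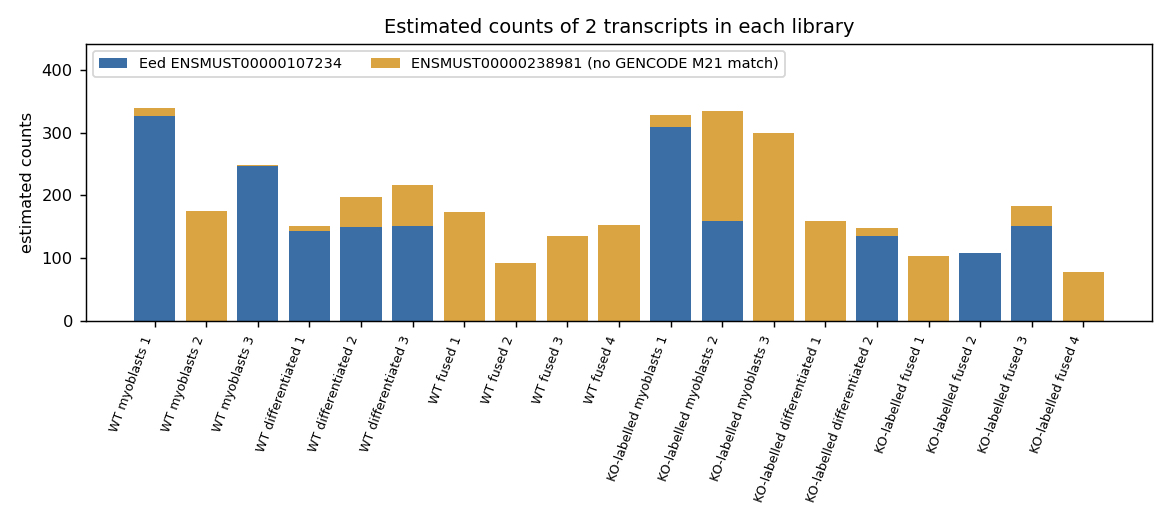
Estimated counts (linear axis from 0) in each of the 19 libraries of the full-length Eed transcript (blue) and of a transcript without a match in GENCODE M21 (yellow), stacked. In 9 libraries the blue bar is at 0 and the yellow bar holds 79 to 300 counts.

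Jarid2, the recruitment subunit gene, rose on fusion, with no call at the step before. WT libraries had 12.3, 13.8 and 13.5 CPM, then 12, 13.4 and 14.8, then 25.2, 24.9, 25.1 and 22.8. The first 2 stages overlapped and the fused libraries lay above both. The log2 fold change was 0.03 ± 0.077 (adjusted p = 0.708) at the first step and 0.86 ± 0.07 (adjusted p = 1.46e-11) at the second. KO-labelled libraries held 12.2 to 13.4 CPM, then 14.2 and 14.7, then 23.1 to 26.5. Their changes were 0.19 ± 0.088 (adjusted p = 0.0503) and 0.81 ± 0.083 (adjusted p = 1.65e-09). In CPM the differentiated libraries lay above the myoblasts, whereas in TPM (per length) they lay below, at 3.70 and 3.58 against 3.77 to 4.22. The first value passed the threshold in 7 of 14 alternatives, with an adjusted p down to 0.00502 and 0.0269 without KO-labelled myoblast library 1. It did not pass in the other 7, where it ran from -0.12 (adjusted p = 0.214), with library size only, to 0.20. With library size as the only scaling, the first WT value was -0.22 (adjusted p = 0.00991), close to the shift of all genes under that scaling.

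The histone-binding subunits took different courses. Rbbp7 at chrX:162760402-162779092 had 308, 321 and 306 CPM in WT myoblasts, 155, 148 and 145 in differentiated and 174, 179, 174 and 169.6 in fused myotubes. It fell by 1.06 ± 0.037 on the log2 scale at the first WT step (adjusted p = 3.58e-20) and rose by 0.22 ± 0.035 at the second (adjusted p = 3.28e-06). KO-labelled cells went from 325, 312 and 319 CPM to 126 and 130.5, then to 162, 168, 171.5 and 164. The differentiated libraries were the lowest in both labels. Their steps were -1.31 ± 0.043 (adjusted p = 1.08e-20) and 0.38 ± 0.041 (adjusted p = 7.08e-09).

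Rbbp4 was lower in fused myotubes than in myoblasts in both labels. Its WT libraries lay at 382 to 404.5 CPM, 354 to 389 and 319 to 326 in the 3 stages, and its log2 change was -0.08 ± 0.039 (adjusted p = 0.0683) and then -0.20 ± 0.037 (adjusted p = 1.75e-05). The first value passed the threshold in 6 of 15 alternatives: without WT myoblast library 3 (adjusted p = 0.0475) or WT differentiated library 1 (0.023), with no low-count filter (-0.14, adjusted p = 0.00381), with library size only (-0.33, adjusted p = 3.78e-08), with the effective-length offset (0.0498), and, as a rise, with the length and GC trend removed. KO-labelled libraries had 414, 404 and 424 CPM, then 357 and 348, then 329, 339.9, 344 and 318, with the differentiated and fused libraries overlapping. There the first step was called (-0.23 ± 0.044, adjusted p = 2.84e-05) and the second was not (-0.08 ± 0.042, adjusted p = 0.0787), the latter passing in 5 of 15 alternatives, with an adjusted p down to 0.00249 with DESeq2 and 0.0493 without KO-labelled fused library 3. Whether the steps differed between labels was tested by interaction, with -0.15 ± 0.059 (adjusted p = 0.0674) and 0.12 ± 0.056 (adjusted p = 0.158). The first interaction passed with library size only (-0.21, adjusted p = 0.0157) and without WT differentiated library 3 (-0.19, adjusted p = 0.0249), and the second with library size only (0.043). Removing a trend in gene length and GC content took the first KO-labelled value to -0.014 (adjusted p = 0.727), turned the first WT value to 0.08 (adjusted p = 0.0257) and ended the call from myoblasts to fused myotubes in WT (-0.02, adjusted p = 0.602, against -0.28 ± 0.037) and in KO-labelled cells (0.013, adjusted p = 0.69, against -0.32 ± 0.036). Transcripts of Rbbp4 share 725 stretches of 31 bases, 8.24% of its own, with those of Sync, a muscle intermediate filament gene. The reads' strand is not stated to have been used in counting, so reads from these stretches cannot be told apart. Rbbp4 and Rbbp7 shared none, and neither did Ezh1 and Ezh2.

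Both demethylase genes rose in CPM. Kdm6b had 33.2, 36.7 and 38.2 CPM in WT myoblasts, 65.5, 75.0 and 76.9 in differentiated and 87.0, 79.7, 90.8 and 85.5 in fused myotubes, with no overlap between stages. Its log2 fold changes were 1.01 ± 0.061 (adjusted p = 1.18e-14) and 0.24 ± 0.054 (adjusted p = 0.000283) in WT and 1.18 ± 0.068 (adjusted p = 5.39e-15) and 0.20 ± 0.063 (adjusted p = 0.00636) in KO-labelled cells, the last losing its call with DESeq2 (adjusted p = 0.0507). Kdm6a had 34.2, 35.4 and 33.3 CPM, then 44.5, 42.5 and 48.6, then 52.6, 47.3, 47.7 and 51.4, so that its differentiated and fused WT libraries overlapped. It changed by 0.40 ± 0.054 (adjusted p = 1.22e-07) and 0.14 ± 0.05 (adjusted p = 0.0141) in WT cells. The second call was lost with DESeq2 (adjusted p = 0.0792), with library size only (0.213), in a fit of the 2 groups alone (0.0689), and without WT differentiated library 1 (0.0563), WT differentiated library 2 (0.115) or WT fused library 1 (0.0596). KO-labelled libraries had 34.5, 32.6 and 34.7 CPM of Kdm6a, then 43.5 and 39.6, then 45.9, 48.5, 46.4 and 48.8, with no overlap between stages. Their changes were 0.29 ± 0.062 (adjusted p = 0.000107) and 0.19 ± 0.06 (adjusted p = 0.00714). The second lost its call with DESeq2 (0.0572) and without KO-labelled differentiated library 2 (0.156), and the first was -0.014 (adjusted p = 0.843) with library size as the only scaling. In TPM (per length), neither WT mean rose from differentiated to fused myotubes. Kdm6b had 14.3 ± 1.64 and then 13.9 ± 0.953 TPM, and Kdm6a 21.7 ± 1.36 and then 20.3 ± 0.982. KO-labelled means were 12.8 and then 12.9 TPM for Kdm6b, and 18.1 and then 19.9 for Kdm6a.

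Uty, the Y-linked paralog of Kdm6a, was at most 0.282 CPM in any library and was not tested. Kdm6a and Uty transcripts share 70 stretches of 31 bases. Per length, the order of the 9 genes in WT myoblasts was Rbbp7 (328 ± 11.8 TPM), Rbbp4 (296 ± 15.9), Ezh2 (124 ± 3.17), Suz12 (62.8 ± 8.92), Eed (19.6 ± 5.07), Kdm6a (17.0 ± 1.28), Kdm6b (7.16 ± 0.670), Ezh1 (5.43 ± 0.158) and Jarid2 (4.54 ± 0.815; n = 3 each). Eed and Kdm6a overlapped between libraries, and each other pair of neighbours in that order did not. That overlap rests on WT myoblast library 2, at 13.7 TPM of Eed, where the full-length transcript was at 0 and the unmatched transcript, which these TPM leave out, held 175 counts. The other 2 libraries had 22.8 and 22.3 TPM. In WT fused myotubes Rbbp4 (206 ± 8.82 TPM) and Rbbp7 (157.5 ± 8.56) still led, Kdm6a (20.3 ± 0.982), Kdm6b (13.9 ± 0.953) and Ezh1 (13.5 ± 1.14) stood above Ezh2 (8.5 ± 1.17), and Suz12 was at 20.8 ± 2.06 TPM (n = 4 each).

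The comparison of genotype labels asks how these genes differed between libraries labelled Glud1KO and WT at each stage, with the whole-gene Glud1 count not differing by the test at any of them (adjusted p = 0.849, 0.193 and 0.748). In myoblasts 1 of the 9 genes passed the test (Ezh2, higher), against 11.6% of all genes, 4.86% higher and 6.69% lower. In differentiated myotubes 2 passed (Ezh2 and Rbbp7, lower), against 25.2%, of which 11.0% higher and 14.1% lower. In fused myotubes 2 passed (Ezh2 and Suz12, lower), against 13.0%, of which 6.32% higher and 6.72% lower. The median log2 fold change of the 9 genes was -0.014, -0.077 and -0.063, beside 0.014, -0.012 and -0.006 over all genes tested.

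Ezh2 passed at every stage and in both directions. From the CPM values above, KO-labelled myoblasts lay above all WT myoblasts and KO-labelled myotubes below all WT myotubes of the same stage. The log2 fold change was 0.22 ± 0.037, 1.16-fold, in myoblasts (adjusted p = 0.000208), -0.48 ± 0.084, a 1.39-fold decrease, in differentiated myotubes (adjusted p = 0.000103), and -0.34 ± 0.07, a 1.27-fold decrease, in fused myotubes (adjusted p = 0.00131). In TPM the labels stayed apart in myoblasts and overlapped later. Differentiated libraries had 9.97 to 15.4 TPM of Ezh2 in WT and 9.89 to 10.4 with the KO label. Fused libraries had 7.21 to 9.94 and 4.31 to 9.815 TPM. Other markers differed between the labels at these stages, and their part in the Ezh2 differences was not tested. In KO-labelled myoblasts 4 of the 7 muscle markers were lower, against 6.69% of all genes, Myh3 (-0.92 ± 0.067), Ckm, Myog and Des (-0.33 ± 0.054), while Myod1 (-0.04 ± 0.05), Myf5 (0.01 ± 0.045) and Pax7 (0.01 ± 0.058) were not called. The marker sum was 1860 to 2040 CPM in WT libraries against 1610 to 1680 CPM with the KO label. In differentiated myotubes 3 of 7 were lower (Pax7, Myod1 and Myf5), against 14.1% of all genes, and the sums overlapped. In fused myotubes 1 of 7 was lower (Myf5, -0.31 ± 0.04), against 6.72% of all genes, and the sums did not overlap, at 20100 to 22000 CPM in WT libraries against 19200 to 19800 CPM. The fibroblast markers summed to 8.38 to 9.04 CPM per WT myoblast library against 5.01 to 5.84 CPM per KO-labelled one. Of 3 tested, 1 was lower in KO-labelled myoblasts and differentiated myotubes, against 6.69% and 14.1% of all genes, Ly6a, which had 5.89 ± 0.361 against 3.08 ± 0.291 CPM in myoblasts (n = 3 each) and at most 0.711 CPM in any later library. Over all alternatives run, the adjusted p of Ezh2 was at most 0.00501, 0.00515 and 0.00859. The label effect differed between stages, by -0.69 ± 0.091 for differentiated myotubes against myoblasts (adjusted p = 3.17e-06) and -0.56 ± 0.079 for fused myotubes against myoblasts (adjusted p = 2.47e-05). The first interaction called 2 of the 9 genes, both with a negative sign, against 19.1% of all genes (7.78% positive and 11.3% negative). The second also called 2, both negative, against 10.3% (5.75% positive and 4.55% negative).

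Rbbp7 was lower in KO-labelled differentiated myotubes, at 126 and 130.5 CPM against 145 to 155, by 0.22 ± 0.043 on the log2 scale (adjusted p = 0.000355). It was 0.03 ± 0.035 in myoblasts and -0.06 ± 0.033 in fused myotubes (adjusted p = 0.633 and 0.236). The label effect differed by -0.25 ± 0.056 between differentiated myotubes and myoblasts (adjusted p = 0.00174). Between fused and differentiated myotubes it differed by 0.16 ± 0.054 (adjusted p = 0.0504), and edgeR called none of the 9 genes in that interaction, against 14.8% of all genes (8.27% positive and 6.53% negative). There 3 genes had an unadjusted p under 0.05 (Rbbp7, Eed and Rbbp4), and DESeq2 called 1, Rbbp7 (adjusted p = 0.0361). That Rbbp7 value passed the threshold in 9 of 22 alternatives, with an adjusted p of 0.0113 to 0.219 over all of them. Of the libraries left out, WT differentiated 3 (0.0352), WT fused 2 (0.0445) and KO-labelled fused 1 (0.0433) or 4 (0.0499) brought it past.

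Suz12 in KO-labelled fused myotubes, at 29.1 to 35.1 CPM, overlapped WT fused myotubes, at 33.4 to 37.6 CPM. Its log2 fold change of -0.16 ± 0.053 was just past the threshold (adjusted p = 0.0485). Among the 17 alternatives 12 lost the call, with an adjusted p of up to 0.195 without KO-labelled fused library 2. The label effect on Suz12 differed by -0.26 ± 0.07 between fused myotubes and myoblasts (adjusted p = 0.0183), and lost that call without WT myoblast library 3 (0.0556), without KO-labelled fused library 2 (0.0549) and with the length and GC trend removed (0.0965).

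For the other 6 genes no label effect passed the test at any stage. Ezh1 differed by -0.05 ± 0.07, 0.02 ± 0.071 and -0.12 ± 0.051 on the log2 scale in the 3 stages (adjusted p = 0.704, 0.859 and 0.122). Kdm6b differed by -0.16 ± 0.064, 0.00 ± 0.066 and -0.04 ± 0.051, the first with an adjusted p of 0.104 that became 0.0431 in a fit of the myoblast libraries alone and 0.0422 without WT myoblast library 1. Kdm6a differed by -0.01 ± 0.054, -0.12 ± 0.062 and -0.08 ± 0.048. The 95% intervals, from the normal approximation to the SE, ran from -0.12 to 0.09, from -0.25 to 0.00 and from -0.17 to 0.02 for Kdm6a, and from -0.29 to -0.04, from -0.13 to 0.13 and from -0.14 to 0.06 for Kdm6b. Jarid2 lay between -0.06 and 0.10 and Rbbp4 between -0.08 and 0.08. Eed differed by 1.17 ± 0.477 in fused myotubes as summed by GENCODE (adjusted p = 0.113) and by -0.10 (adjusted p = 0.624) with the unmatched transcript added. The value as summed was called in 3 of 18 alternatives, with no low-count filter (1.17, adjusted p = 2.43e-18), in a fit of only the libraries compared (0.0344) and without KO-labelled fused library 4 (1.42, adjusted p = 0.0399). With library size as the only scaling, Kdm6a (-0.18, adjusted p = 0.0414) and Rbbp4 (-0.13, adjusted p = 0.0338) were called lower in differentiated myotubes.

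**Figure D4:**
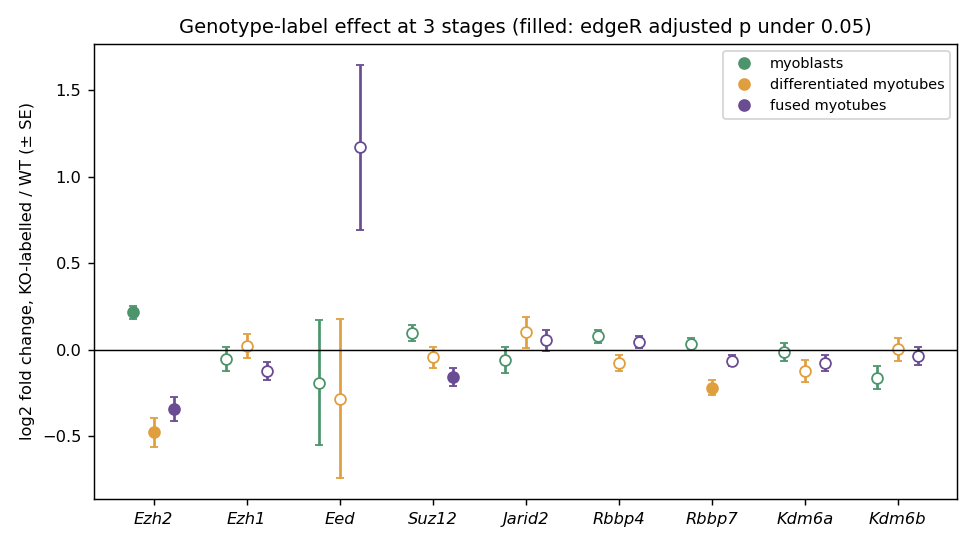
Log2 fold change of KO-labelled against WT libraries, with its SE, for the 9 genes in myoblasts (green), differentiated myotubes (orange) and fused myotubes (purple); filled points have an edgeR adjusted p under 0.05. Ezh2 is the gene with all 3 points filled, at 0.22, -0.48 and -0.34.

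A list of 10 genes of the cell cycle and of E2F control was set beside Ezh2. In myoblasts 3 of 10 were higher in KO-labelled libraries, against 4.86% of all genes, none was lower and 7 were not called, with a median log2 fold change of 0.12 beside 0.014 over all genes. Those were Rrm2, a subunit of ribonucleotide reductase (0.21 ± 0.038), Cdk1, the mitotic kinase (0.21 ± 0.04), and Ccnb1, its cyclin (0.20 ± 0.044). In differentiated myotubes 5 of 10 were lower, against 14.1% of all genes, and 1 was higher, with a median of -0.39 beside -0.012. The proliferation marker Mki67 lay at 4.09 to 5.07 CPM in WT libraries against 0.588 to 0.996 CPM in the KO-labelled ones, a log2 fold change of -2.55 ± 0.265 (adjusted p = 4.35e-08), and Top2a, a topoisomerase of dividing cells, changed by -2.45 ± 0.191 (adjusted p = 2.54e-10). Mcm2, a replication helicase subunit, was the gene that was higher (0.28 ± 0.085, adjusted p = 0.0166).

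In fused myotubes 1 of 10 was lower (E2f2, -0.16 ± 0.049), 1 was higher (E2f1, 0.27 ± 0.091) and 8 were not called, against 13.0% of all genes called. The summed level of the 10 genes was 1960 CPM in each WT and 2160 to 2220 CPM in KO-labelled myoblast libraries, 254 to 265 and 232 to 243 CPM in differentiated, and 139 to 153 and 133 to 139 CPM in fused myotubes. By these sums the order of the labels was the one Ezh2 showed at each stage. The fused sums shared an end value of 139 CPM. In fused myotubes single genes were called in both directions, and E2f2, the one called lower, rose at the first WT step. Whether the share of cycling cells takes part in the Ezh2 difference was not tested. At the first WT step 9 of the 10 genes fell, against 42.6% of all genes, Ccnb1 by 5.84 ± 0.075 on the log2 scale, while E2f2 rose by 2.48 ± 0.06.

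**Figure D5:**
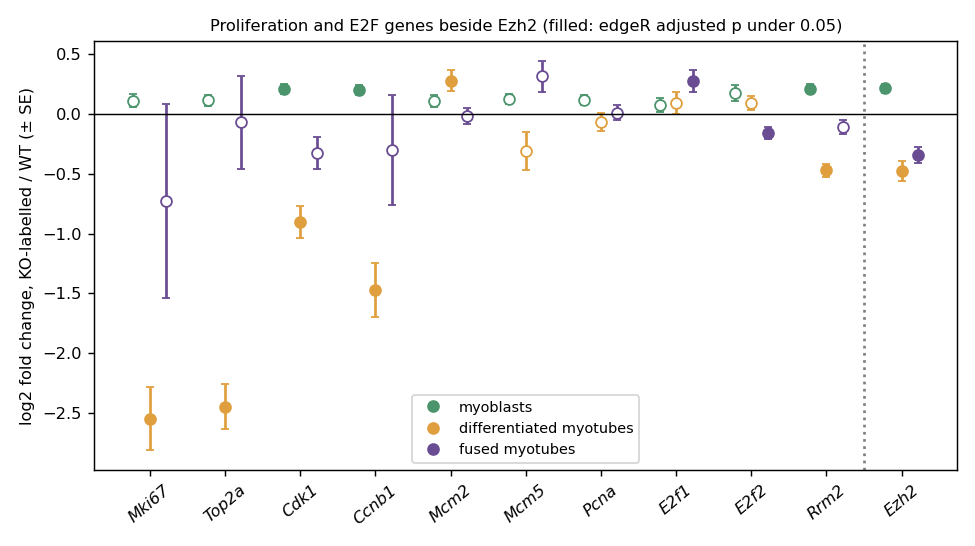
Log2 fold change of KO-labelled against WT libraries, with its SE, for 10 proliferation and E2F genes and for Ezh2 (right of the dotted line) in myoblasts (green), differentiated myotubes (orange) and fused myotubes (purple); filled points have an edgeR adjusted p under 0.05. Mki67 and Top2a lie near -2.5 in differentiated myotubes, where Ezh2 is at -0.48.

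Some accessory PRC2 subunits changed with stage. Of 8 listed genes 7 were tested, since AU022751, the Ezhip gene, had 0 counts in all 19 libraries. At the first WT step 1 rose and 3 fell, against 42.4% and 42.6% of all genes, with a median of -0.007 beside 0.019. Phf1, a Polycomb-like subunit, went from 13.5 ± 0.670 CPM (n = 3) to 39.97 ± 0.258 (n = 3) and back to 19.6 ± 0.606 (n = 4), with log2 changes of 1.56 ± 0.054 (adjusted p = 4.06e-20) and -1.02 ± 0.05 (adjusted p = 2.82e-16). Epop, a subunit that links PRC2 to elongin, fell from 3.54 ± 0.744 to 0.303 ± 0.139 CPM (-3.46 ± 0.331, adjusted p = 2.3e-10). Between labels 1 of 7 was called in myoblasts and 1 in fused myotubes, against 11.6% and 13.0% of all genes. Aebp2, a subunit of the JARID2 form of PRC2, was higher in KO-labelled myoblasts (0.16 ± 0.043, adjusted p = 0.0126), at 121 to 130.3 against 111 to 116 CPM, and Phf1 was lower in fused myotubes (-0.18 ± 0.054, adjusted p = 0.023). In differentiated myotubes edgeR called none of the 7, with 1 at an unadjusted p under 0.05, and DESeq2 called none.

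PRC1, the complex that ubiquitinates histone H2A at PRC2 targets, had 14 of 21 genes lower and 5 higher at the first WT step, against 42.6% and 42.4% of all genes, with a median of -0.39 beside 0.019. Phc2 fell by 2.08 ± 0.047 and Phc3, another Polyhomeotic gene, rose by 1.28 ± 0.064 on the log2 scale. At the second WT step 6 rose and 5 fell, against 37.4% and 37.7% of all genes, led by Cbx7, a reader of the PRC2 mark (0.77 ± 0.096), and Rybp, a subunit of variant PRC1 (-1.01 ± 0.056). Between labels 2 of 21 were called at each stage, beside 11.6%, 25.2% and 13.0% of all genes. In KO-labelled myoblasts these were Bmi1 (0.17) and Scmh1 (-0.14). Rybp was lower in KO-labelled differentiated (-0.27 ± 0.064, adjusted p = 0.00256) and fused myotubes (-0.32 ± 0.062, adjusted p = 0.000725), and Cbx6 was higher in both (0.20 ± 0.064 and 0.22 ± 0.05).

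The list for KDM6A's H3K4 methyltransferase complex held 10 genes. Of these, 9 partner genes were tested, and Uty, the Kdm6a paralog, was not. At the first WT step 6 fell and 2 rose, against 42.6% and 42.4% of all genes, with a median of -0.40. Kmt2d, the methyltransferase gene, went from 66.1 ± 7.04 to 177 ± 8.88 and then 57.3 ± 6.57 CPM (1.42 ± 0.081 and -1.62 ± 0.077), and Paxip1 changed by -1.13 ± 0.054. In KO-labelled differentiated myotubes 2 of 9 were called, against 25.2% of all genes: Kmt2c was lower (-0.40 ± 0.089, adjusted p = 0.00134) and Dpy30, a core subunit of these complexes, was higher (0.26 ± 0.091, adjusted p = 0.0399). In myoblasts and in fused myotubes edgeR called none of the 9 between labels, with 2 and 1 at an unadjusted p under 0.05, and DESeq2 called none. Of the 2 acetyltransferase genes whose products place the opposing H3K27 mark, 1 was called in differentiated and 1 in fused myotubes, against 25.2% and 13.0% of all genes. Ep300 was lower in KO-labelled differentiated (-0.18 ± 0.059, adjusted p = 0.0261) and fused myotubes (-0.17 ± 0.048, adjusted p = 0.0154), the former not called by DESeq2. Crebbp differed by -0.15 ± 0.058 (adjusted p = 0.0668) and -0.13 ± 0.049 (adjusted p = 0.0833) and was not called. In myoblasts edgeR called neither, with 0 at an unadjusted p under 0.05, and DESeq2 called 0.

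Other complexes that hold RBBP4 or RBBP7 had 9 of 10 genes lower at the first WT step, against 42.6% of all genes, with a median of -1.20. Chaf1b, of the chromatin assembly factor of replication, fell from 37.7 ± 0.497 to 0.504 ± 0.168 CPM. In KO-labelled differentiated myotubes 5 of the 10 were lower, against 14.1% of all genes, led by Chaf1a (-0.56 ± 0.171, adjusted p = 0.0171), with a median of -0.14 beside -0.012, in the group where Rbbp7 was lower. DESeq2 called 4 there. In fused myotubes 1 of 10 was called, Chd4, lower (-0.15 ± 0.041, adjusted p = 0.0161), against 13.0% of all genes, and Chaf1a was at -0.01 ± 0.16. In myoblasts edgeR and DESeq2 called none of the 10, with 4 at an unadjusted edgeR p under 0.05.

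Of 6 genes known as targets of PRC2 or KDM6A, 4 rose and 2 fell at the first WT step, against 42.4% and 42.6% of all genes, and 2 rose and 4 fell at the second, against 37.4% and 37.7%. All 6 were called at each step, where 85.0% and 75.1% of all genes were. Pax7, the satellite cell factor, fell from 102 ± 3.19 to 10.6 ± 0.579 and 3.61 ± 0.662 CPM in the WT stages. Myog, the differentiation factor, went from 114 ± 8.88 to 2479 ± 108 and 885 ± 52.7 CPM, and Ckm, the muscle creatine kinase, from 2.22 ± 0.485 to 129.6 ± 9.80 and 429.6 ± 41.3 CPM. Myh4, a fast myosin, went from 1.42 ± 0.331 to 6.89 ± 0.574 and 541 ± 63.3 CPM. Of the cell cycle inhibitor genes, Cdkn2a fell from 62.7 ± 2.57 to 32.5 ± 5.04 and 23.7 ± 1.36 CPM, and Cdkn1c went from 0.739 ± 0.0381 to 7.84 ± 0.722 and 3.24 ± 0.161 CPM (n = 3, 3 and 4 for each gene). Between labels 3 of 6 were called in myoblasts, against 11.6% of all genes, with Myog (-0.63 ± 0.071, adjusted p = 4.11e-07) and Ckm (-0.81 ± 0.234, adjusted p = 0.0228) lower and Myh4 higher (1.16 ± 0.225, adjusted p = 0.000848), although Myh4 was at most 3.81 CPM there. In differentiated myotubes 1 of 6 was called, against 25.2% of all genes, and 2 without WT differentiated library 2. This was Pax7, lower (-0.92 ± 0.136, adjusted p = 1.01e-05), at 5.08 and 6.18 against 10.2 to 11.3 CPM. Pax7, Myog and Ckm are also among the skeletal muscle markers described above, so their calls stand in both lists. In fused myotubes edgeR and DESeq2 called none of the 6, with 2 at an unadjusted edgeR p under 0.05, and edgeR called 2 without WT fused library 4.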

How the data were processed

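RNA-seq was measured in 19 libraries of 6 groups. Per the submitters' processing notes, tools named are bcl2fastq 2.20, fastp 0.20.0, kallisto 0.46.1 and edgeR 3.36, with the build GRCm38.p6. The authors deposited, per the file headers, estimated counts and TPM for each of 121843 transcripts in each library. Estimated counts were summed per gene with GENCODE M21, which matched 121018 transcripts, and rounded. The 825 unmatched transcripts held 0.255 to 0.507% of the counts.

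A quasi-likelihood model with 6 group terms was fitted to all 19 libraries with edgeR 4.0.16 in R 4.3.3, after filterByExpr (15123 of 35598 genes) and trimmed-mean scaling. P-values were adjusted by Benjamini-Hochberg over all genes tested, with a threshold of 0.05. The SE of a log2 fold change was its size divided by the root of F. Ratios of Ezh2 to Ezh1 were compared with exact two-sided permutation tests in scipy 1.17.1. DESeq2 1.42.0 was an alternative, as were other scalings, filters, an effective-length offset, removal of a length and GC trend, a fit of the compared libraries alone, a replicate block and leaving out each library.

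The members and gene lists were chosen with earlier results of these data known. Named beside the 9 members were, for the lists and comparisons described, called genes with the largest rise and fall, with a mean of at least 1 CPM in the higher group. Cdk1, Ccnb1, Myf5 and Pax7 in the myoblast comparison of labels fall outside that rule, as does Chaf1a in fused myotubes. So do Crebbp, Cdkn2a, Cdkn1c, Top2a, Myog, Myod1, Des, Itgam, Ptprc and Sync. All of these were chosen after their values were seen. Libraries of 1 group differed by more than sampling noise (chi-square per degree of freedom 2.14 to 7.66), and none was counted as a duplicate. On simulated data, run on 14880 genes, 2-fold changes in 50 genes were recovered for 48, 49 and 49 genes in the comparisons of labels in myoblasts, differentiated and fused myotubes. Of 50 genes changed 1.5-fold, 41, 42 and 41 were recovered, and of 50 changed 1.25-fold, 34, 30 and 31. Among the unchanged genes, 13, 13 and 9 were called. Same-numbered libraries did not deviate together (correlations -0.0506 to 0.0292), so the fit without a block was used.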

Additional observations from a re-analysis of the deposited data

Results flagged for a closer look

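The label effect on Ezh2 differed between stages, by -0.69 on the log2 scale for differentiated myotubes against myoblasts and by -0.56 for fused myotubes against myoblasts, each by its interaction term. The same test gave -0.25 for Rbbp7 in differentiated myotubes against myoblasts and -0.26 for Suz12 in fused myotubes against myoblasts.

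Jarid2 in 1 WT fused library, at 22.8 CPM, lay apart from the other 3, with a gap of 0.869 of the group's range, larger than Dixon's 95% critical value. In all, 20 groups of values were tested for such a library, and chance marks about 1 in 20.

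The transcript ENSMUST00000238981, which entered no gene here, held between 0 and 300 estimated counts per library.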

How the results depend on the processing

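The number of the 9 genes called between labels was 1 in myoblasts, and 2 in a fit of the myoblast libraries alone (1 to 2 over libraries left out). In differentiated myotubes it was 2, and 4 with library size only. In fused myotubes it was 2, and 1 with DESeq2 size factors, library size only, the replicate block, the effective-length offset or the length and GC trend removed, and 3 with no low-count filter, which added Eed (1 to 2 over libraries left out). The interaction of fused against differentiated myotubes had 0 calls, 2 with library size only and 1 with the DESeq2 test, with no low-count filter, with a minimum of 1 CPM on average, with the effective-length offset or with the trend removed (0 to 1 over libraries left out). That of fused myotubes against myoblasts had 2, and 1 with the trend removed (1 to 3 over libraries left out). Eed, uncalled in the main fit, was called in that interaction in 2 of 24 alternatives, with an adjusted p down to 1.4e-15. The cause was not tested.

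The log2 Ezh2 to Ezh1 ratio from the transcript with the highest mean TPM was -0.18, -5.31 and -1.67 between labels in the 3 stages, -3.31, -4.28 and -7.59 for the WT steps and -8.43 and -9.08 for KO-labelled differentiated and fused myotubes against myoblasts. The 2 Ezh1 transcripts that held most of its TPM share 99.7% of their 31-base stretches. From estimated counts the KO-labelled first step was -5.14. Between labels in fused myotubes the ratio ran from -0.31 to 0.15 over libraries left out, the last without KO-labelled fused library 1.

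Values that changed sign with a call were Jarid2 (-0.22) in the first WT step and Kdm6a (-0.014) in the first KO-labelled step with library size only, and Rbbp4 with the trend removed in the first WT step (0.08) and in KO-labelled fused myotubes against myoblasts (0.013). With the replicate block, Suz12 in fused myotubes lost its call between labels (adjusted p = 0.0671) and Jarid2 gained one in the first KO-labelled step (adjusted p = 0.0376). In that fit the call stayed on its side for 106 of the 108 member values, while other alternatives changed further calls. The replicate numbers are not known to pair libraries.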

Other observations

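Over the 19 libraries, the 5 protein-coding genes whose log2 CPM followed Ezh2 most closely, among 8786 genes with a mean of at least 10 CPM, were Rfwd3 (Pearson r 0.9989), Kpnb1 (0.9989), Kpna2 (0.998), Ncaph (0.9976) and Ssrp1 (0.9973). Those closest to Ezh1 were Adcy9 (0.9969), Phkb (0.9956), Zhx2 (0.9948), Coq8a (0.9946) and Wdr26 (0.9946). The libraries fall into 3 stages, which all these values share, and the correlations are given as a description.

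Within Ezh1, the transcripts ENSMUST00000107284 (4207 bases) and ENSMUST00000107285 (4193 bases) took opposite shares of the gene's TPM between libraries of 1 group. In the 3 WT myoblast libraries the first held 76.6, 0.151 and 72.6% and the second 4.35, 78.7 and 6.88%.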
